A study of Mus musculus with 12 samples.

Results

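De novo lipogenesis, the making of fatty acids from carbohydrate carbon, was followed through 10 genes in epididymal white adipose tissue (eWAT): Fasn, Acaca, Acly, Scd1, Elovl6, Srebf1, Mlxipl, Me1, Thrsp and Dgat2. They were chosen by name, from the known pathway, among the 49315 genes of the count table, and all 10 passed the filter on low counts that left 18702 genes for testing. RNA came from 12 mice in 4 groups of 3, with 1 library per mouse. The control mice, called flox, carried the allele miR-181a2b2flox/flox, and the KO mice were miR-181a2b2-/- in every tissue, so no Cre-driven cell type limits the deletion. Mice of both genotypes ate a 60% high-fat diet (HFD) over 12 weeks and were injected i.p. each week with vehicle or with methotrexate (MTX, an antifolate used against inflammation) at 1 mg/kg. All groups thus shared the diet, and no lean mice were sequenced. The ages of the mice are not given in the sources used here.

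In the pathway, citrate leaves the mitochondria and is split by ATP citrate lyase (Acly) into acetyl-CoA, which acetyl-CoA carboxylase (Acaca) turns into malonyl-CoA. Fatty acid synthase (Fasn) builds palmitate from both with NADPH, part of which malic enzyme (Me1) supplies. Elovl6 lengthens palmitate, stearoyl-CoA desaturase (Scd1) adds the double bond, and Dgat2 joins the last acyl chain to make triglyceride. Srebf1 encodes SREBP-1c, which carries the insulin signal to these genes, and Mlxipl encodes ChREBP, which responds to sugar. Thrsp (Spot 14) is a small nuclear and cytosolic protein that promotes fat synthesis in adipose tissue, liver and mammary gland.

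The factors that act on these genes bind short DNA words near the start of transcription. The windows below hold the 250 bases before the start site of the members with the smallest p between genotypes with vehicle (Srebf1) and with MTX (Thrsp), of Fasn as the central enzyme, and of Mlxipl, which has the palindromic E-box bound by basic helix-loop-helix factors. They are RefSeq sequences of build GRCm38.p6, written 5′ to 3′ on the strand of the gene, with capitals for exact matches on either strand to the CCAAT word, the GC box GGGCGG or the E-box CACGTG.
Srebf1, chr11:60210472-60210721, minus strand: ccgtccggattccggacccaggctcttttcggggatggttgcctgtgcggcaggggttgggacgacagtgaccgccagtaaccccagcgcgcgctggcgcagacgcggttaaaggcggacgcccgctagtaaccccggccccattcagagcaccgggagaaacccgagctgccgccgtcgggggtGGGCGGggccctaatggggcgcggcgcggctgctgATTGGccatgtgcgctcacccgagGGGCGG
Thrsp, chr7:97417551-97417800, minus strand: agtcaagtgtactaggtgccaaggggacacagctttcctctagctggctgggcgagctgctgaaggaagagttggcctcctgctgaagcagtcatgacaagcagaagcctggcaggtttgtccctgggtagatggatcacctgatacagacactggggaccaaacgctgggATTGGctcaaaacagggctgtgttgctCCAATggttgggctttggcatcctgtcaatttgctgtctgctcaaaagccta
Fasn, chr11:120824548-120824797, minus strand: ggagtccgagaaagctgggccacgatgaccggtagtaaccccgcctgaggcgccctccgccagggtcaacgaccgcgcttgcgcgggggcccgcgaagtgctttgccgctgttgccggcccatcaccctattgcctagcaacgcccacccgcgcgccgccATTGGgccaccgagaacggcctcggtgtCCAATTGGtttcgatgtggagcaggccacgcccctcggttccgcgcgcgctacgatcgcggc
Mlxipl, chr5:135089640-135089889, plus strand: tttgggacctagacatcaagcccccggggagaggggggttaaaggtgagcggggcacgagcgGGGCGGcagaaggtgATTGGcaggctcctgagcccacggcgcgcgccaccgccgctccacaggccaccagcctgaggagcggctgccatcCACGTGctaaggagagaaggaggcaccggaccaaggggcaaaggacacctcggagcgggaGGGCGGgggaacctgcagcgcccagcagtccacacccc

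Of the 10 members, 8 had at least 1 window in the promoter table, with 12 windows in all because Srebf1 has 3 annotated starts and Mlxipl and Me1 have 2 each. Scd1 and Dgat2 were not matched. A CCAAT word on either strand stood in 7 of the 12 windows of 300 bases, against 37.4% of all 32851 windows in the table, and a GC box in 5, against 35.7%. The E-box stood in 1, against 7.15%, and TCACNCCAC, the core of the sterol regulatory element, in 1, the second window of Mlxipl, against 1.24%. In the Fasn window the word CCAAT began 62 bases before the start site and overlapped a match on the other strand, and Thrsp had 1 match on each strand. These matches describe letters and say nothing about binding in these mice.

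The libraries differed little in depth, from 19495310 to 23976469 counts, but not in make-up. Summed markers of epididymis, the organ this fat pad lies against, made up 5543, 16170.0 and 1816 CPM (counts in every 1000000 of the library) in flox vehicle replicates 1, 3 and 4, 535 CPM in flox MTX replicate 1 and 1.24 to 18.3 CPM elsewhere. Testis germ cell markers were likewise between 209 and 602 CPM in the flox vehicle group and at most 12.5 CPM in the other libraries. These markers cannot be told apart from the flox vehicle group itself. Replicate 4 holds them too, so a fit without flox vehicle replicates 1 and 3 cannot separate a gene from them. The adipocyte identity of the tissue was checked with 15 markers that hold no lipogenic enzyme (Adipoq, Plin1, Cidec, Fabp4 and others): all 15 were above 3 counts in every library. They summed to between 35140 and 75240 CPM in flox vehicle mice, 32540 and 53120 in KO vehicle mice, 49470 and 85310 in flox MTX mice and 21040 and 40630 in KO MTX mice. The precursors Mir181a-2 and Mir181b-2 at the deleted locus had 0 counts in every library, apart from Mir181a-2 with 2 in replicate 4 of the flox MTX group, so the table does not check the genotypes.

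Scd1 dominated the pathway. Per kilobase of exon, a scale on which genes can be compared, its mean level over the 12 libraries was 3291 ± 3106 CPM/kb (SD), followed by Dgat2 at 709 ± 401, Thrsp at 230.02 ± 269, Fasn at 193 ± 189 and Me1 at 166 ± 112. Acly was at 54.5 ± 33.2 CPM/kb, Srebf1 at 41.4 ± 23.6, Mlxipl at 11.1 ± 4.51, Acaca at 10.8 ± 10.3 and Elovl6 at 4.67 ± 3.57. The SDs, which include the groups, are as large as many of the gaps in this order, and neighbours such as Thrsp, Fasn and Me1, or Mlxipl and Acaca, do not differ beyond them. They describe the spread across libraries and not the order within a library, where Scd1 was above Dgat2 in every case. With RLE size factors in place of TMM factors the order was the same. Together the 10 genes took 4.21%, 1.38% and 3.08% of all counts in the flox vehicle mice, 1.404%, 1.12% and 0.711% in the KO vehicle mice, 2.70%, 1.62% and 6.03% in the flox MTX mice and 1.09%, 0.653% and 1.56% in the KO MTX mice. Scd1 alone made up 52.2% to 86.1% of that share. Its near relatives were far lower, with 5337 to 28347 counts per library for Scd2 and 4 to 564 for Scd3, against 77035 to 864241 for Scd1, and reads shared between these copies could not be separated here.

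**Figure D1:**
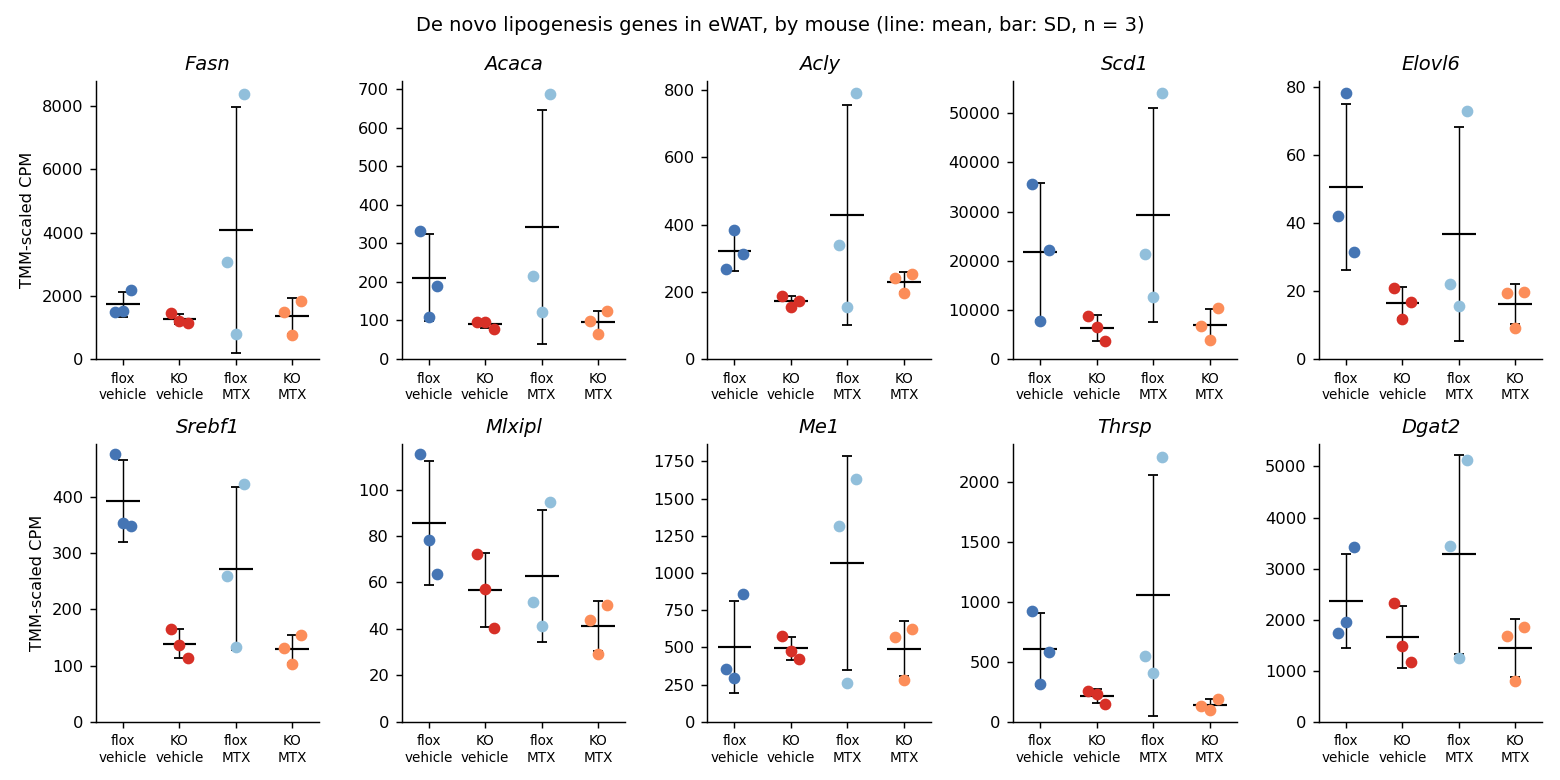
Level of each lipogenesis gene (vertical axis, TMM-scaled CPM, from 0) in each mouse, by group (horizontal axis). Points are mice in order of replicate number, lines are means and bars are SD over 3 mice. For Srebf1, Elovl6, Thrsp, Fasn, Acaca and Acly all KO vehicle mice lie below all flox vehicle mice, as for 25.3% of all genes tested. For Scd1, Mlxipl, Me1 and Dgat2 they overlap. Flox MTX replicate 4 is the highest of the 12 libraries for 7 of the 10 genes.

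The first question was how the pathway differed between KO and flox mice given vehicle. All 10 genes had a lower mean in KO mice, and 4 of the 10 passed the test as lower: Srebf1, Elovl6, Scd1 and Thrsp, against 17.8% of all genes tested that were called lower. Calls required 1.5-fold or more and an adjusted p under 0.1 in edgeR's quasi-likelihood test with Benjamini-Hochberg adjustment over all genes. The median log2 fold change was -1.07 for the members and -0.0561 for all genes, of which 53.5% had a lower sign. For 6 members every KO mouse was below every flox mouse, which held for 25.3% of all genes. Without flox vehicle replicates 1 and 3, the libraries with the most epididymis counts, edgeR called 0 members, and 1415 genes in all (7.07%) in place of 5924. In that setting Scd1 (-1.81), Thrsp (-1.43), Srebf1 (-1.32) and Elovl6 (-0.93) kept a lower sign, with unadjusted p-values of 0.0449, 0.0951, 0.0221 and 0.238.

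Among the regulators, Srebf1 (ENSMUSG00000020538, GRCm38 chromosome 11, 60199089 to 60222581) measured 476, 353 and 348 CPM in the flox mice and 165, 137 and 114 CPM in the KO mice. The groups lay far apart: the lowest flox mouse had more than any KO mouse by a wide margin. The log2 fold change was -1.50 (SE 0.35, 95% interval -2.27 to -0.73), or 2.83-fold lower, with an adjusted p of 0.00909. This call was made in 22 of 23 alternative settings, in which the adjusted p ran from 0.000216 to 0.147, and it was lost when flox vehicle replicates 1 and 3 were both left out (log2 fold change -1.32, adjusted p 0.147). Srebf1 overlaps Rai1 on the opposite strand, whose counts reached up to 31.1% of those of Srebf1, and the strand setting of the counting is not stated.

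Thrsp (ENSMUSG00000035686, chromosome 7, 97412938 to 97417730) measured 922, 311 and 581 CPM in flox mice and 259, 233 and 149.8 CPM in KO mice. The groups did not overlap, though the lowest flox mouse, replicate 3, came near the highest KO mouse. Its log2 fold change was -1.50 (SE 0.61, adjusted p 0.086). Thrsp was called in 13 of the 23 alternatives, with adjusted p from 0.018 to 0.29, and leaving out flox replicate 1 (0.267) or 4 (0.122), KO vehicle replicate 1 (0.132), 2 (0.157) or 3 (0.241) or KO MTX replicate 2 (0.109) ended the call. Mlxipl (ENSMUSG00000005373, chromosome 5, 135089890 to 135138382) measured 115, 78.1 and 63.7 CPM in flox and 72.2, 57.2 and 40.3 CPM in KO mice. The groups overlapped, and the log2 fold change of -0.60 (95% interval -1.36 to 0.16, adjusted p 0.213) was within the spread between mice.

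Of the enzymes that shape the fatty acid, Scd1 (ENSMUSG00000037071, chromosome 19, 44394455 to 44407879) measured 35549, 7675 and 22198 CPM in flox mice and 8743, 6570.4 and 3610.1 CPM in KO mice. Flox replicate 3 lay below KO replicate 1, so the groups overlapped, while the other flox mice were well above all KO mice. The log2 fold change of -1.79 (SE 0.69, adjusted p 0.0737), 3.46-fold lower, was the largest of the 10 in this comparison. The call was made in 18 of 23 alternatives (adjusted p 0.0118 to 0.239) and ended without flox replicate 1 (0.239) or 4 (0.108) or KO replicate 2 (0.152) or 3 (0.219).

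Elovl6 (ENSMUSG00000041220, chromosome 3, 129532355 to 129638495) measured 42.004, 78.2 and 31.5 CPM in flox mice and 20.96, 11.9 and 16.7 CPM in KO mice. All flox mice were above all KO mice, by a log2 fold change of -1.61 (SE 0.56, adjusted p 0.0507). Elovl6 was the 1 member of 10 whose flox vehicle libraries ranked as the epididymis markers did, replicate 3 above 1 above 4. The share of all genes with that order was not counted. It was called in 17 of 23 alternatives (adjusted p 0.0113 to 0.471). Without flox replicate 3 the log2 fold change was -1.16 (adjusted p 0.18), and the call also ended without KO replicate 2 (0.147) or 3 (0.129).

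The enzymes of synthesis proper and of carbon supply had a lower mean in KO mice without passing the test. Acaca (ENSMUSG00000020532, chromosome 11, 84129672 to 84401651), the committed step, measured 332, 110.2 and 190.5 CPM in flox mice and 94.7, 96.0 and 78.7 CPM in KO mice, a log2 fold change of -1.23 (95% interval -2.47 to 0.014, adjusted p 0.126). Acly (ENSMUSG00000020917, chromosome 11, 100476353 to 100528000) measured 268, 383 and 312 CPM against 189, 153 and 172 CPM, a log2 fold change of -0.91 (adjusted p 0.142). For both genes every KO mouse was below every flox mouse, which held for 25.3% of all genes. DESeq2 called both (adjusted p 0.0669 and 0.0924), with 33.4% of all genes called by it in either direction. Acaca was called in 5 of the 23 alternatives (adjusted p 0.037 to 0.404) and Acly in 4 (0.0117 to 0.466).

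Fasn (ENSMUSG00000025153, chromosome 11, 120805846 to 120824547) differed less, at 1480.2, 1518 and 2178 CPM in flox and 1453, 1213 and 1145 CPM in KO mice. The groups lay side by side without overlap, and the log2 fold change of -0.44 had a 95% interval from -1.83 to 0.94 (adjusted p 0.633). Dgat2 (ENSMUSG00000030747, chromosome 7, 99153658 to 99182719) ranged from 1730.3 to 3421 CPM in flox and from 1163 to 2329 CPM in KO mice (log2 fold change -0.51, 95% interval -1.64 to 0.61). Me1 (ENSMUSG00000032418, chromosome 9, 86581371 to 86695953) measured 354, 293 and 859 CPM in flox and 576, 477 and 424 CPM in KO mice. Flox replicates 1 and 3 were below every KO mouse, and flox replicate 4 was above them. The log2 fold change was -0.028 (95% interval -1.33 to 1.27, adjusted p 0.979). A change of about 2-fold in either direction is thus inside the interval of Me1, whose KO mice all lay within the range of the flox mice.

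**Figure D2:**
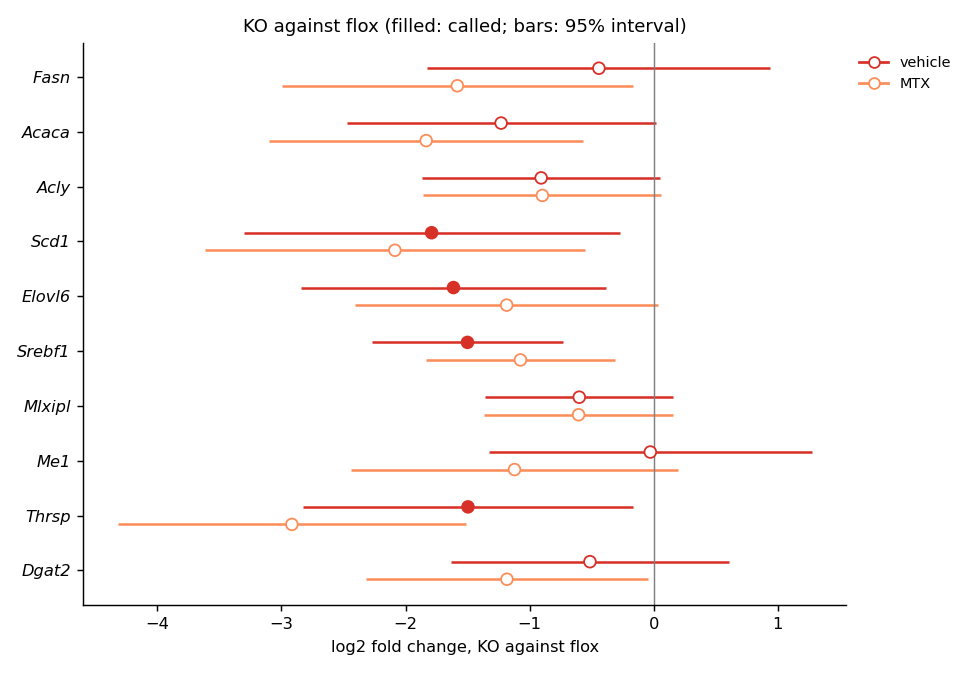
Log2 fold change of KO against flox (horizontal axis) for each lipogenesis gene, with vehicle (red) and with MTX (orange). Bars are 95% intervals from the edgeR fit and filled points are called genes: Srebf1, Elovl6, Scd1 and Thrsp with vehicle, none with MTX. All points are below 0.

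The balance between desaturase and synthase can be read within each library. The count ratio of Scd1 to Fasn was 24.0, 5.06 and 10.2 in flox vehicle mice and 6.02, 5.42 and 3.15 in KO vehicle mice. It was 6.95, 16.1 and 6.44 in flox MTX mice and 4.49, 5.03 and 5.57 in KO MTX mice, so that with MTX all flox mice were above all KO mice and with vehicle flox replicate 3 was below KO replicates 1 and 2. No test was run on this ratio.

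The tissue is bulk, so fewer adipocytes and less RNA per adipocyte cannot be told apart. Other cell types differed with genotype: all 15 macrophage markers were called higher in KO vehicle mice, against 13.9% of all genes called higher, and their sum was 847 to 1537 CPM in flox and 6689 to 12930 CPM in KO mice. Fibroblast markers (7 genes) summed to 1520.0 to 2940.0 CPM in flox and 5872 to 9159 CPM in KO vehicle mice, and endothelial markers (8 genes) to 400.1 to 621 and 831 to 1317 CPM, again without overlap. The part of these cells in the lower lipogenic levels was not tested. Of the 15 adipocyte markers 2 were called lower, 12 had a lower sign, and their median log2 fold change was -0.694, against -1.07 for the lipogenesis genes. The ratio of summed lipogenesis counts to summed adipocyte counts was 0.559, 0.393 and 0.460 in flox vehicle mice and 0.264, 0.261 and 0.218 in KO vehicle mice. All flox mice were above all KO mice in this ratio, but Scd1 was 52.2% to 86.1% of the lipogenesis counts over the 12 libraries. Without Scd1, the members took 0.583%, 0.55% and 0.816% of counts in flox vehicle mice. In KO vehicle mice they took 0.521%, 0.416% and 0.339%. Adipocyte markers took 7.52%, 3.51% and 6.71% in the flox and 5.31%, 4.30% and 3.25% in the KO mice. A separation beyond adipocyte content is thus not shown for the members other than Scd1 as a sum. With the libraries scaled to the adipocyte list in place of TMM factors, which moved the median of all genes to 0.283, Scd1 (log2 fold change -1.25, adjusted p 0.0367) and Srebf1 (-1.16, adjusted p 0.0682) were still called, Elovl6 (adjusted p 0.118) and Thrsp (0.16) were not, and Me1 turned to 0.43. Of all genes 14.7% were called with this scaling, in either direction. The adipocyte list leans on a few genes: Fabp4 held 19.4% to 34.2% and Lpl 12.9% to 42.4% of it.

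**Figure D3:**
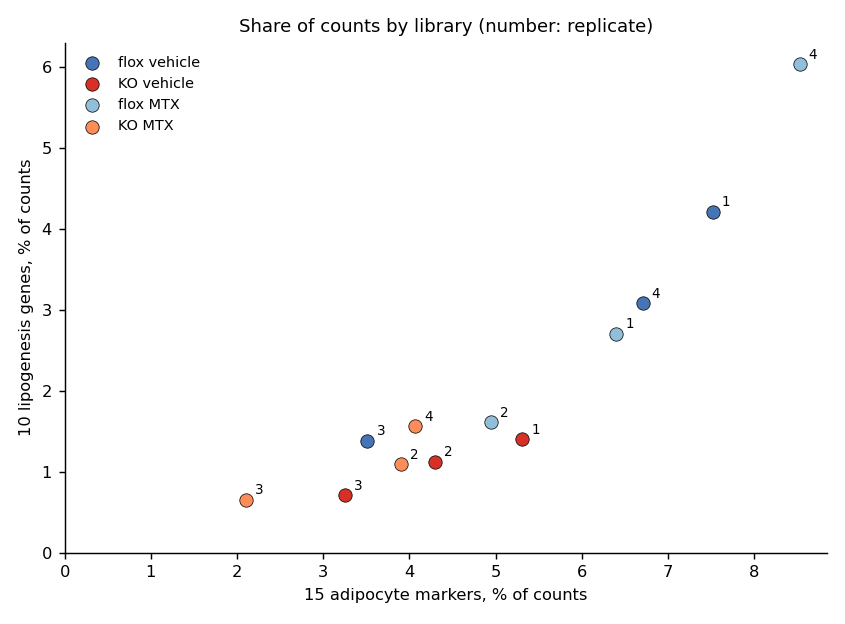
Share of all counts taken by the 10 lipogenesis genes (vertical axis, percent) against that of the 15 adipocyte markers (horizontal axis, percent) in each of the 12 libraries, coloured by group and numbered by replicate. The KO vehicle libraries lie lowest for their adipocyte share, with ratios of 0.218 to 0.264, and flox MTX replicate 4 highest on both axes. Scd1 makes up 52.2% to 86.1% of the lipogenesis share.

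With MTX, KO and flox mice were compared in the same way. All 10 genes were again lower in KO mice, with a median log2 fold change of -1.18 against -0.0454 for all genes, but 0 of 10 were called by edgeR, as were 0% of all genes, whose smallest adjusted p was 0.104. At an unadjusted p below 0.05, 6 of the 10 were lower (Thrsp, Acaca, Srebf1, Scd1, Fasn and Dgat2), against 12.9% of all genes, and DESeq2 called those 6, with 14.8% of all genes called by it in either direction. KO mice were all below flox mice for 2 members, Scd1 and Thrsp, against 12.1% of all genes.

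Thrsp showed the widest gap, at 547, 407 and 2212.5 CPM in flox MTX mice and 129.97, 98.2 and 191 CPM in KO MTX mice. The lowest flox mouse was well above the highest KO mouse. The log2 fold change was -2.92 (SE 0.64, 95% interval -4.32 to -1.52), or 7.54-fold lower, with an adjusted p of 0.104, and the gene was called in 6 of 23 alternatives (adjusted p 0.000255 to 0.338). Scd1 measured 21351, 12709 and 54038 CPM in flox and 6660 (replicate 2), 3804 and 10282 CPM in KO mice. These groups did not overlap either, and the log2 fold change was -2.09 (SE 0.70, adjusted p 0.124).

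The other members overlapped between genotypes, each of them through flox MTX replicate 2. Fasn measured 3072, 790.1 and 8386 CPM in flox MTX and 1484, 756 and 1847 CPM in KO MTX mice (log2 fold change -1.58, 95% interval -2.996 to -0.17). Srebf1 measured 259.9, 133.6 and 423 CPM against 130.4, 104 and 154 CPM (log2 fold change -1.07, 95% interval -1.83 to -0.31). In both genes flox replicate 2 was at the level of the KO mice and the other flox mice above all of them. Acaca had a log2 fold change of -1.83 (adjusted p 0.116), Elovl6 of -1.19 (0.215), Dgat2 of -1.18 (0.19), Me1 of -1.12 (0.27), Acly of -0.90 (0.23) and Mlxipl of -0.61 (0.3). Without flox MTX replicate 2, 9 of the 10 were called lower, all but Mlxipl (adjusted p 0.128), against 20.8% of all genes called in either direction. Without flox vehicle replicate 3, Thrsp alone of the 10 was called (adjusted p 0.0976), against 5.4% of all genes.

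The make-up of the libraries moved with these levels. Macrophage markers summed to 3713, 7711 and 981 CPM in flox MTX replicates 1, 2 and 4 and to 9220.0 to 16150.0 CPM in the KO MTX mice, fibroblast markers to 4673, 4969 and 2330.0 CPM in the flox mice and to 6012 to 7582 CPM in the KO mice, and adipocyte markers to 63990.0, 49470.0 and 85310.0 CPM in the flox mice. The flox MTX mouse with the most macrophage counts thus had the least lipogenic and adipocyte counts, and the one with the fewest had the most. All 15 adipocyte markers had a lower sign in KO MTX mice, with a median log2 fold change of -1.23, close to the -1.18 of the lipogenesis genes. The ratio of lipogenesis to adipocyte counts was 0.423, 0.326 and 0.707 in flox MTX and 0.280, 0.310 and 0.384 in KO MTX mice, which overlapped. Scaled to the adipocyte list, with the median of all genes at 1.14, Thrsp (log2 fold change -1.51, adjusted p 0.0675) and Scd1 (-0.80, adjusted p 0.0942) were called lower. Of all genes 45.7% were called with this scaling, in either direction, a larger share than that of the members. With it 6 members changed sign, from 0.073 (Dgat2) to 0.64 (Mlxipl).

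The effect of MTX was then compared within each genotype. In flox mice edgeR called 0 of the 10 genes and DESeq2 also 0, with 0 at an unadjusted p under 0.05 in edgeR, whereas 24.2% of all genes were called. The members spread in both directions, from -0.53 for Srebf1 (95% interval -1.28 to 0.22) to 1.24 for Fasn (95% interval -0.16 to 2.64, adjusted p 0.194), and 7 of the 10 were higher in sign. A doubling is inside the intervals of Fasn, Acaca, Acly, Scd1, Me1, Thrsp and Dgat2. Of the 15 macrophage markers 14 were called higher with MTX in flox mice, and of the 15 adipocyte markers 0 were called by edgeR, with 0 at an unadjusted p under 0.05.

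The flox MTX mice themselves differed more than the groups did. Replicate 4 held the highest level of all 12 libraries for Fasn, Acaca, Acly, Scd1, Me1, Thrsp and Dgat2, and Fasn there was 8386 CPM against 790.1 CPM in replicate 2. Without replicate 2, Fasn (log2 fold change 1.74, adjusted p 0.0357), Me1 (1.57, 0.0461) and Acly (0.83, 0.0824) were called higher with MTX. Without replicate 4, Elovl6 (-1.42, 0.0497), Srebf1 (-0.99, 0.0477) and Mlxipl (-0.88, 0.0859) were called lower. Without flox vehicle replicate 4, Me1 was called higher (1.73, 0.071). Of all genes, in either direction, 24% were called without replicate 2, 25.4% without replicate 4 and 30.9% without flox vehicle replicate 4, so 3 or 1 of 10 members is near the share of all genes or below it, and which members were called turned on 1 mouse.

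Between vehicle and MTX in KO mice edgeR called 0 of the 10 genes, as it did 0% of all genes, DESeq2 also called 0, and 0 had an unadjusted p under 0.05. The range ran from -0.61 for Thrsp (95% interval -1.92 to 0.69) to 0.43 for Acly (-0.53 to 1.38). Acly measured 189, 153 and 172 CPM with vehicle and 239.9, 196 and 254 CPM with MTX, so the groups lay side by side without overlap, as they did, higher with MTX, for 11.1% of all genes. For Scd1, whose levels were 3610.1 to 8743 CPM with vehicle and 3804 to 10282 CPM with MTX, the interval of the log2 fold change ran from -1.34 to 1.60.

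The interaction of genotype and MTX asks whether the response to the drug differed between genotypes. By edgeR 0 of the 10 members were called, against 0.989% of all genes, with 0 at an unadjusted p under 0.05 and 0 called by DESeq2. Estimates ran from -1.42 for Thrsp (SE 0.84, adjusted p 0.445) to 0.43 for Elovl6 (SE 0.77). Both genotype comparisons use separate mice, while each shares its groups with the MTX comparisons.

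**Figure D4:**
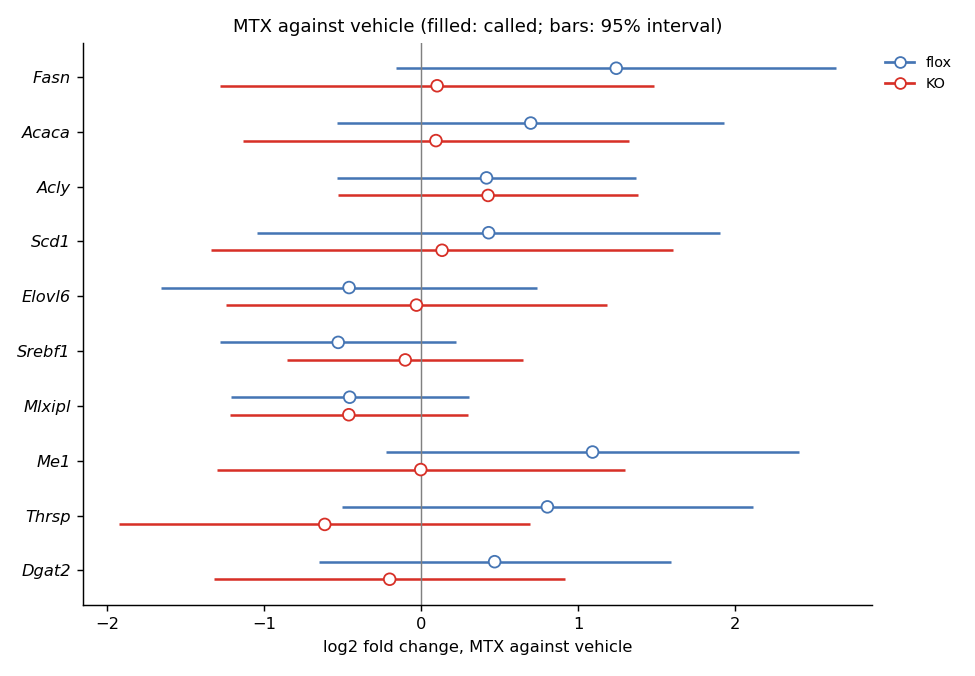
Log2 fold change of MTX against vehicle (horizontal axis) for each lipogenesis gene in flox mice (blue) and KO mice (red), with 95% intervals from the edgeR fit. No point is filled, since none of the 10 genes was called, and every interval includes 0.

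A further 51 genes around the pathway, in 4 lists, set these members in context. In KO vehicle mice 12 were called lower (23.5%, against 17.8% of all genes) and 2 higher (Elovl1 and Usf1, against 13.9%). Carbon and NADPH supply, with the citrate carrier Slc25a1, Acss2, Idh1, G6pdx and others, had 0 of 10 called by edgeR in either direction, 0 at an unadjusted p under 0.05 and a median of -0.0799.

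Glycerolipid assembly held 5 of 12 called lower. Gpam, the mitochondrial glycerol-3-phosphate acyltransferase that starts triglyceride assembly, measured 112, 60.5 and 99.9 CPM in flox vehicle mice and 19.0, 16.2 and 14.8 CPM in KO vehicle mice. No KO mouse came near a flox mouse, and the log2 fold change was -2.45 (SE 0.40, adjusted p 0.00324). Gpam was still called with adipocyte scaling (-1.99, adjusted p 0.00541). Without flox vehicle replicates 1 and 3 its log2 fold change was -2.58, though replicate 4, the library left, still held 1816 CPM of epididymis markers. The monoacylglycerol acyltransferase Mogat1 (-1.75), Gpat3 (-1.34), Gpat4 (-1.03) and the lysophosphatidate acyltransferase Agpat3 (-0.72) were the others.

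Elongation, desaturation and malonyl-CoA held 4 of 15 called lower and 1 higher. Fads2, the delta-6 desaturase of polyunsaturated fatty acids, measured 78.8, 183 and 41.0 CPM in flox vehicle mice and 8.46, 7.83 and 6.28 CPM in KO vehicle mice, a log2 fold change of -3.74 (SE 0.46, adjusted p 0.00276). Scd3 fell by 4.88 on the log2 scale, Elovl7 by 1.64 and Fads1 by 1.13, and Elovl1, which lengthens very long chains, rose by 0.79. Fads2, Scd3, Elovl7 and Fads1 all ranked replicate 3 above 1 above 4 in the flox vehicle group, as the epididymis markers did, and their part in these values was not tested. Replicate 4 still held 1816 CPM of those markers, so the fit that leaves only this flox vehicle library cannot separate genes from them. Without flox vehicle replicates 1 and 3, Fads2 (-2.44, adjusted p 0.00831), Scd3 (-3.27, 0.075) and Elovl1 (0.71, 0.0959) were still called, and Elovl7 (0.145) and Fads1 (0.89) were not.

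Control of SREBP-1c and ChREBP held 3 of 14 called lower and 1 higher. Mid1ip1, the Thrsp relative that activates acetyl-CoA carboxylase, was lower by a log2 fold change of -1.88 (adjusted p 0.0073), the kinase Sik2 by -1.65 (0.0108) and the SREBP escort Scap by -0.89 (0.00786), and the factor Usf1 was higher by 0.72 (0.0119). Mid1ip1 and Scap shared the order of the epididymis markers and were not called without flox vehicle replicates 1 and 3 (adjusted p 0.157 and 0.223), whereas Sik2 was (-1.66, 0.0935). In all, 6 of the 12 genes called lower had that order, as did 13 of the 51. The share of all genes with that order was not counted, so these counts have no background to be read against.

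With MTX, 0 of the 51 were called between genotypes by edgeR, although 7 of the 12 glycerolipid genes were lower at an unadjusted p under 0.05, against 12.9% of all genes. DESeq2 called 12, against 14.8% of all genes called by it in either direction. Without flox MTX replicate 2 edgeR called 25, against 20.8% of all genes, and without flox vehicle replicate 3 it called 3, against 5.4%. Between vehicle and MTX in flox mice 6 of the 51 were called, all lower (11.8%, against 24.2% of all genes called in either direction), namely Scd3 (-3.24), Fads2 (-3.09), Elovl7 (-2.28), Fads1 (-1.25), Mid1ip1 (-1.49) and Scap (-0.72), all of which had the epididymis order in the flox vehicle group. Without flox vehicle replicate 3 the 3 still called were Elovl7, Fads2 and Scd3, and without replicates 1 and 3 only Elovl7 (-1.94, adjusted p 0.0936) and Fads2 (-1.78, 0.0392) were. Without flox MTX replicate 2 the count was 16, and without flox vehicle replicate 4 it was 10. Of all genes, in either direction, 24% and 30.9% were called in these settings, and 11.7% without flox vehicle replicate 3. In KO mice 0 of the 51 were called by edgeR or DESeq2, with 3 at an unadjusted p under 0.05. Fads2 was the 1 gene of the 51 called in the interaction (3.10, SE 0.61, adjusted p 0.083), against 0.989% of all genes.

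**Figure D5:**
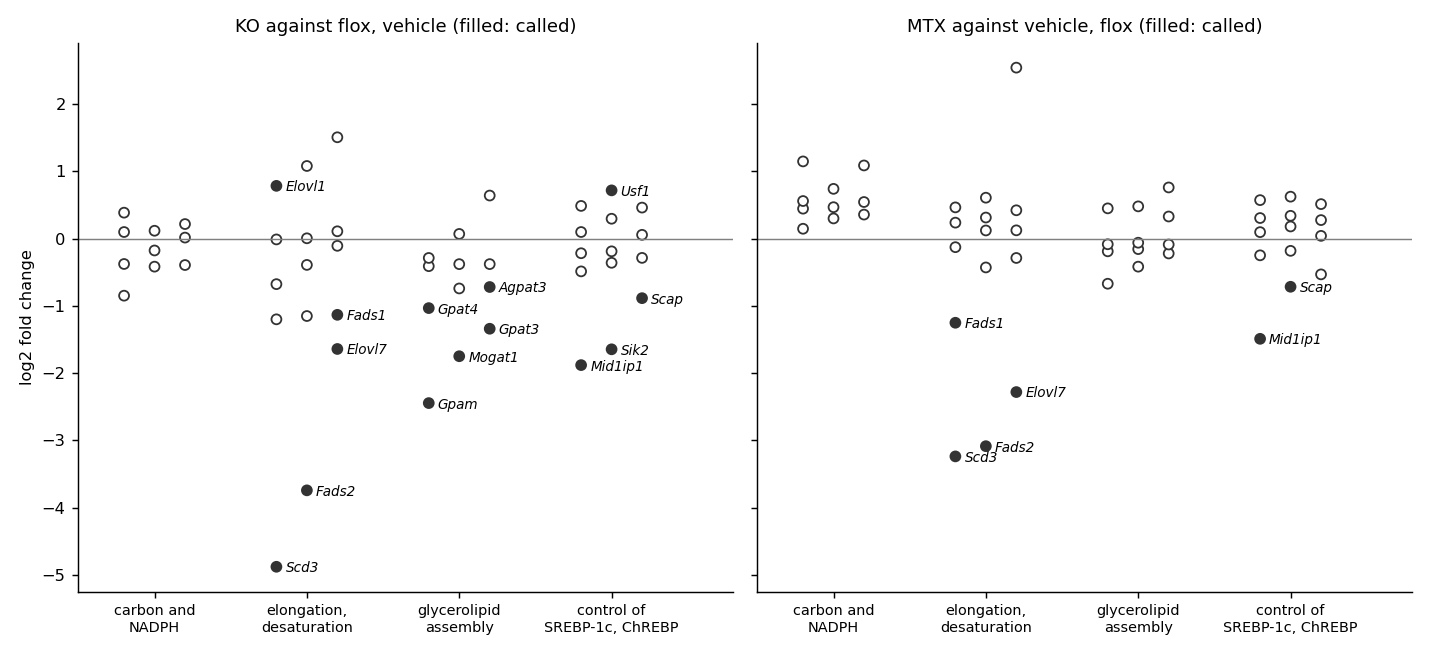
Log2 fold change (vertical axis) of the 51 genes around the pathway, by list (horizontal axis), for KO against flox with vehicle (left) and MTX against vehicle in flox mice (right). Filled points are called genes, named beside the point: 12 lower and 2 higher on the left, and 6 lower on the right.

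The members varied together across the mice, but so did many genes outside the pathway. Each gene was centred on its group means and compared with the mean of the standardised log2 CPM of all 10 members. Over the 12 libraries the correlation of a member with that mean ran from 0.753 for Elovl6 to 0.97 for Srebf1. Each member is part of that mean. Ranked by this correlation among all genes, Srebf1 had rank 12, Fasn 50, Acaca 218, Thrsp 323 and Dgat2 572. Acly had rank 582, Mlxipl 690, Scd1 828, Me1 1025 and Elovl6 1744. Many other genes thus followed that mean more closely than some members did. Outside the lists, the 5 genes nearest to that mean were Pnpla3 (r = 0.994), Dlst (0.991), Uqcc1 (0.983), Faf1 (0.982) and Aacs (0.977). Pnpla3 is a lipid droplet acyltransferase and lipase related to adipose triglyceride lipase, Dlst a subunit of the 2-oxoglutarate dehydrogenase complex, and Aacs the cytosolic acetoacetyl-CoA synthetase, which makes acetoacetate carbon available for lipid synthesis. Without centring, Dlst (0.991) and Uqcc1 (0.983) stayed among the nearest 5, joined by Pdhx, Tbl2 and Cdkn2c, and Pnpla3 had r = 0.895. Of the adipocyte markers Pparg (0.887) and Plin1 (0.883) were nearest and Cfd (0.377) farthest. The centred mean was lowest in flox MTX replicate 2 and highest in flox MTX replicate 4. The libraries share depth and tissue make-up, so these values describe the 12 libraries only.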

How the data were processed

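The data are RNA-seq read counts from eWAT of 12 mice. Per the submitters' processing notes and the methods, the authors used Trimmomatic 0.36 for trimming, STAR 2.5.2b for alignment to GRCm38 (mm10) and featureCounts (Subread 1.5.2) for read counts of Ensembl genes. The deposited values are raw counts with no normalization. The strand setting and the handling of reads with several matches are not given in the sources used here. The methods describe ribosomal RNA depletion and the labels polyA RNA, and which applies is not known here.

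The groups were compared by edgeR 4.0.16 under R 4.3.3 (TMM scaling, filterByExpr by group, glmQLFit and glmQLFTest, 1 coefficient per group, 8 residual degrees of freedom, Benjamini-Hochberg over 18702 genes). Genes were called from 1.5-fold with an adjusted p under 0.1. The limit of 1.5 in the methods can also be read as log2, which was an alternative, as were DESeq2 1.42.0, other scalings and filters, a replicate block and left-out libraries. Symbols matched 99.3% of gene IDs, and coordinates and exon lengths are those of GENCODE M21. CPM values were scaled with TMM factors (0.821 to 1.085), and marker sums are shares of all counts. Intervals are 95% intervals of the fit. P-values test a difference between groups against the spread between mice within groups, estimated over all 4 groups together.

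All 10 members and the genes called in the wider lists are named, together with the 5 genes most like the members. The members, lists and tests were chosen with earlier results of these data known. The test procedure was tested on simulated data. No pairing of mice by replicate number was seen: 3 of 12 pairs with the same number had a residual correlation over 0.1 (median 0.0353, against 0.0112 for 42 other pairs). These correlations ran from -0.273 to 0.254, and so few pairs cannot settle whether the mice were paired. No libraries were duplicates, since counts within groups differed far beyond sampling noise (lowest chi-square per df 13.4).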

Additional observations from a re-analysis of the deposited data

Results flagged for a closer look

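Fads2, a desaturase of the wider lists, is singled out because its response to MTX differed between genotypes by the interaction test of edgeR (log2 difference 3.10, SE 0.61, adjusted p 0.083). It measured 78.8, 183 and 41.0 CPM in flox vehicle mice and 15.3, 9.59 and 10.7 CPM in flox MTX mice, against 8.46, 7.83 and 6.28 CPM in KO vehicle mice and 6.85 to 8.004 CPM in KO MTX mice. The flox vehicle mice were highest, the flox MTX mice lay lower but above every KO mouse, and the KO groups overlapped. The flox vehicle group is the one with the epididymis markers, and Fads2 there followed their order. Without flox vehicle replicate 3 the interaction was 2.35 (adjusted p 0.0922), and without replicates 1 and 3 it was 1.79 (0.239). It was not called with the replicate block or a minimum of 10 counts throughout, nor when any of flox vehicle replicate 1, KO vehicle replicates 1, 2 and 3, flox MTX replicates 2 and 4 or KO MTX replicates 2 and 4 was left out (adjusted p 0.105 to 0.293), though its sign was the same in each.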

How the results depend on the processing

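Without flox vehicle libraries 1 and 3 the members called fell from 4 to 0 between genotypes with vehicle, which leaves 1 flox vehicle library, assumed to vary like the other groups. The percentages that follow are shares of all genes called in the same setting, in either direction. With the replicate block 2 members were called there (27.2%), and with adipocyte scaling also 2 (14.7%). Leaving out 1 library each gave 1 to 6 (23.7% to 35%). With MTX the main count was 0. Adipocyte scaling called 2 (45.7%), no filter on low counts 2 (2.53%), a minimum of 10 counts throughout 4 (10.6%) and DESeq2 6 (14.8%). Leaving out 1 library there gave 0 to 9 (0% to 20.8%). For MTX in flox mice, scaling by library size alone called 1 (23.4%) and adipocyte scaling 1 (13.5%), and leaving out 1 library gave 0 to 3 (11.7% to 30.9%). For MTX in KO mice and for the interaction every setting run called 0 members.

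Signs changed as follows. With the replicate block, KO against flox with vehicle gave Fasn 0.0059 and Me1 0.53. With adipocyte scaling, Me1 was 0.43 there, and with MTX Acly was 0.53, Elovl6 0.13, Srebf1 0.25, Mlxipl 0.64, Me1 0.17 and Dgat2 0.073. Me1 with vehicle ran from -0.30 to 0.61 when 1 library was left out. The interaction of Elovl6 ran from -0.031 to 1.38 when 1 library was left out, and was -0.26 without flox vehicle libraries 1 and 3. Mice with the same number were not seen to deviate together, though 12 pairs cannot settle this. The block moved the count of all genes called from 5924 to 5080 with vehicle, from 4528 to 2771 for MTX in flox mice and from 185 to 0 for the interaction.

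Counts of all genes called in KO against flox with MTX were 0 by edgeR (4576 at an unadjusted p below 0.05), 2769 by DESeq2, 1491 at a minimum of 10 counts throughout, 875 unfiltered, 8549 with adipocyte scaling and 4064 without flox MTX replicate 2. For MTX in KO mice edgeR called 0 (1491 at an unadjusted p below 0.05) and DESeq2 281, and in the interaction DESeq2 called 1248. In the wider lists, a count added after the values were seen, 14 genes called with vehicle became 5 with adipocyte scaling and 7 at the log2 limit of 1.5. Of all genes 14.7% and 16.2% were called in these 2 settings. The cause of these shifts was not tested.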
